A study of Homo sapiens with 4 samples.

Results

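POLE3, C9orf43 and 4 genes whose proteins work with POLE3 were followed in 143B cells, a human osteosarcoma line, after depletion of CBX3, the gene of the chromatin protein HP1γ. The 6 genes were taken by name from the 37450 features of the count table. POLE3 and C9orf43 were chosen by their position head to head with shared exon bases and by their low counts in siCBX3 libraries against siNC libraries, so their difference between the groups is described here without a test. POLE4, CHRAC1, SMARCA5 and BAZ1A were included as complex partners of POLE3. All 6 passed the filter on low counts, which left 20999 genes. RNA was taken 2 days after lipid-based transfection of siRNA against CBX3 (siCBX3, 2 libraries, genotype label CBX3 knockdown) or of a non-targeting siRNA (siNC, 2 libraries, genotype label WT). Both groups share the cell line, the transfection reagent and the day. The labels do not say how many siRNAs were used or give their sequences. They do not state that libraries of a group were grown separately either. The p-values therefore reflect variation among these 4 libraries, which may be technical.

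POLE3 and POLE4 encode small histone-fold proteins that pair with each other as the accessory subunits of DNA polymerase ε, the enzyme that copies the leading strand at the replication fork, and that also bind histones there. POLE3 has a second partner, CHRAC1, with which it forms the histone-fold pair of the chromatin accessibility complex (CHRAC). In CHRAC this pair joins SMARCA5, the ISWI-family ATPase also called SNF2H, and BAZ1A, also called ACF1, which together slide nucleosomes along DNA. C9orf43 is an open reading frame with no established role.

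POLE3 lies on the minus strand of chromosome 9 (113407235 to 113410672, GRCh38) and C9orf43 on the plus strand (113410054 to 113429684), so that they run in opposite directions and their 5′ ends overlap. The exons of the count table have 104 bases in common, which are 3.99% of the 2604 exon bases of POLE3 and 4.54% of the 2290 of C9orf43. The shared stretch is the first exon of a non-coding C9orf43 transcript in GENCODE 29, and 86 of its bases are coding sequence of POLE3 on the opposite strand. It is printed because reads from these bases can belong to either gene. It is given 5′ to 3′ on the C9orf43 strand (chr9:113410054-113410157, GRCh38), with the bases opposite POLE3 coding sequence in capitals.
Shared exon: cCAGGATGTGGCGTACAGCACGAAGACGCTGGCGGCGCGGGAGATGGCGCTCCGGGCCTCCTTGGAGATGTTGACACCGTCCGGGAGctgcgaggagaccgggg

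Outside that exon, 2 other first exons of C9orf43 start beyond the 5′ end of POLE3, the nearer one after a gap of 13 bases. The stretch between the first and second annotated exons of POLE3 lies in no exon of either gene. Where the first exon is used, it is an intron inside the POLE3 span. The name promoter stretch below refers to a POLE3 window of the RefSeq promoter table (113410325 to 113410624), which contains it. The stretch is 208 bases long and 64.4% G or C, from that table (GRCh38.p14), on the POLE3 strand (chr9:113410409-113410616). Capitals mark the single match among 6 motifs that were searched on both strands.
POLE3 promoter stretch: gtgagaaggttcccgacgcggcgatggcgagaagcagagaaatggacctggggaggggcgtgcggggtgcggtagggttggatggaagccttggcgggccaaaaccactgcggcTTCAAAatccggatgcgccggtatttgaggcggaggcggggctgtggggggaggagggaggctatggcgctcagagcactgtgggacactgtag

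The match is the CHR letters TTTGAA, on the opposite strand at position 115 of the stretch, and 10.8% of equally long stretches before the start in the 34796 promoter windows hold the same letters. Those stretches end directly at a start, while the printed one lies inside the POLE3 span, so the shares are a rough guide. The other motifs searched were CCAAT (in 28.7% of such stretches), CACGTG (5.61%), GGGCGG (40.5%), CCGGAAG (7.87%) and TATAAA (9.04%), none of which occurred in this stretch. No motif overlapped another in it. The promoter table held 4 of the 6 genes (POLE3, C9orf43, POLE4 and SMARCA5), each as 300-base windows from 250 bases before to 50 after a start. CCAAT occurred in the POLE4 window alone among them, and CACGTG in a single POLE3 window. GGGCGG occurred in every window of these genes, and TTTGAA in the C9orf43 window and a single POLE3 window. The windows of C9orf43 and POLE3 overlap. Their TTTGAA matches are the same bases, those in capitals above, and their GGGCGG matches may be shared in part.

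The targeted gene and the libraries were checked first. CBX3 was at 57.2 ± 0.165 CPM in siCBX3 libraries and at 523 ± 22.2 CPM in siNC libraries (counts scaled by library total and TMM factor, SD, n = 2 each), a log2 fold change of -3.19. Total counts ran between 36509298 and 40336907 per library. Libraries of a group correlated at 0.991 in log2 CPM across genes, and libraries of different groups at 0.957 to 0.961. Of the 9 markers fixed for mesenchymal and osteoblast cells 7 passed the count filter. The 9 summed to 3307 and 3217 CPM in siCBX3 libraries and 1047 and 1080 CPM in siNC libraries, mostly VIM and SPARC. VIM averaged 1420 CPM in siCBX3 and 704 CPM in siNC, and SPARC 1732 CPM and 321 CPM. The osteoblast genes ALPL and SP7 averaged 0.0531 CPM or less in both groups. The 5 epithelial markers summed to 785 and 799 CPM in siCBX3 libraries and 1295 and 1290 CPM in siNC libraries, mostly the keratins KRT8 and KRT18. The 5 leukocyte markers stood at 2.64 CPM or less in total and the 4 endothelial markers at 2.89 CPM or less in every library. The part of these marker shifts in the results that follow was not tested.

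POLE3 was several-fold less abundant after CBX3 depletion than with the non-targeting siRNA. It had 1612 and 1783 counts in siCBX3 libraries and 8801 and 9389 counts in siNC libraries. The groups were far apart and the libraries within each lay close together. In RNA from a whole culture, fewer cells with a transcript and less of it per cell cannot be told apart. On the CPM scale POLE3 averaged 46.4 ± 0.929 in siCBX3 and 228 ± 7.57 in siNC (SD, n = 2 each), 4.92-fold lower in siCBX3. The log2 fold change was -2.30 (SE 0.08), at rank 221 of the 20999 tested genes counted from the most negative. Among the 1867 tested genes with a mean of at least 100 CPM, CBX3 itself was the only one further below 0 than POLE3. POLE3 reached that mean through its siNC level alone, so this place is a description and tests nothing.

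C9orf43 was lower in almost the same proportion. It had 341 and 356 counts in siCBX3 libraries and 1643 and 1772 counts in siNC libraries, again with a wide gap between the groups. Its level was 9.53 ± 0.198 CPM in siCBX3 and 42.8 ± 1.09 CPM in siNC (SD, n = 2 each), 4.49-fold lower in siCBX3, with a log2 fold change of -2.17 (SE 0.10) and rank 263.

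Set against each other as separate counts, C9orf43 and POLE3 were in similar ratio in the 4 libraries, as follows from their choice as genes that were low together. The C9orf43 count was equal to 21.2% (Wilson 95% interval 18.8% to 23.8%) and 19.97% (17.8% to 22.4%) of the POLE3 count in siCBX3 libraries. In siNC libraries it was 18.7% (17.7% to 19.7%) and 18.9% (17.9% to 19.9%). The intervals cover counting error only. The library kit keeps strand, per the labels, but no source used here gives the strand setting of the counting. The table holds 1 count per gene, so it does not show where in C9orf43 the reads lay. How reads over the shared bases were divided between C9orf43 and POLE3 is not known here.

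**Figure D1:**
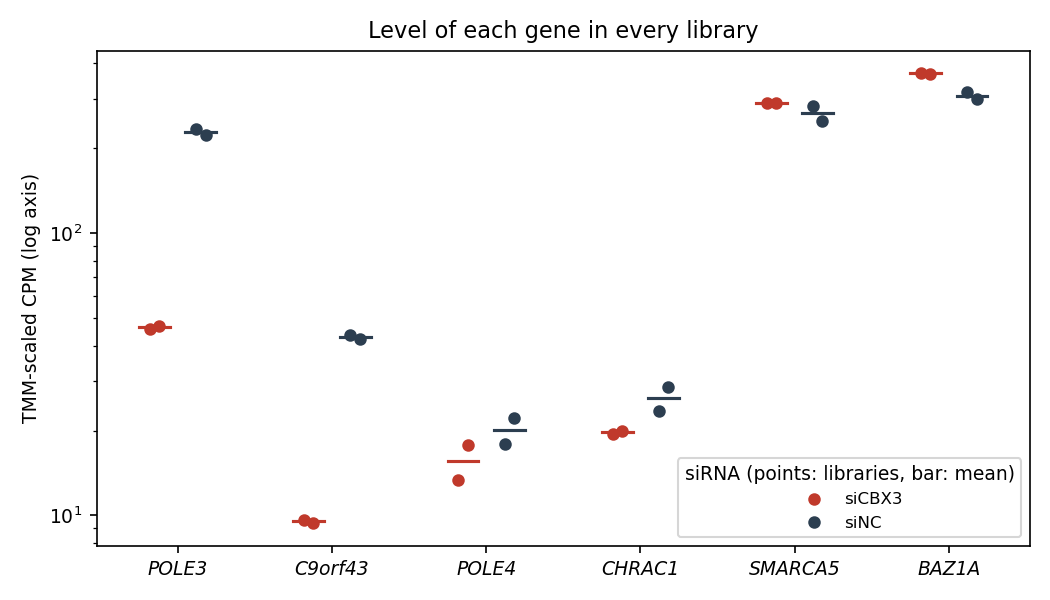
TMM-scaled CPM (log axis) of the 6 genes in each library, with points for libraries and bars for the mean of the 2 siCBX3 libraries (left of each pair) and the 2 siNC libraries (right). POLE3 and C9orf43 lie 4.92-fold and 4.49-fold lower in siCBX3, while the other 4 genes differ far less.

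Coding head-to-head pairs that share exon bases seldom fell so far together, and few tested genes of any kind fell so far. Of the 20999 tested genes, 263 had a log2 fold change at or under that of C9orf43. Of 1525 head-to-head pairs that share exon bases and had both genes tested, 631 consisted of coding genes. POLE3 and C9orf43 were the only pair of the 631 with both log2 fold changes at or under -2. One further pair, C9orf66 (-1.13) and DOCK8 (-1.37), had both at or under -1, and in 31 pairs a single gene was at or under -1. The median coding pair shared 192 bases, more than POLE3 and C9orf43. The cut of -2 lies close to the values of POLE3 (-2.30) and C9orf43 (-2.17). Since POLE3 and C9orf43 were chosen for their low values, these counts place the pair and test nothing. Whether both genes of a pair fell together more often than unpaired genes would was not tested.

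**Figure D2:**
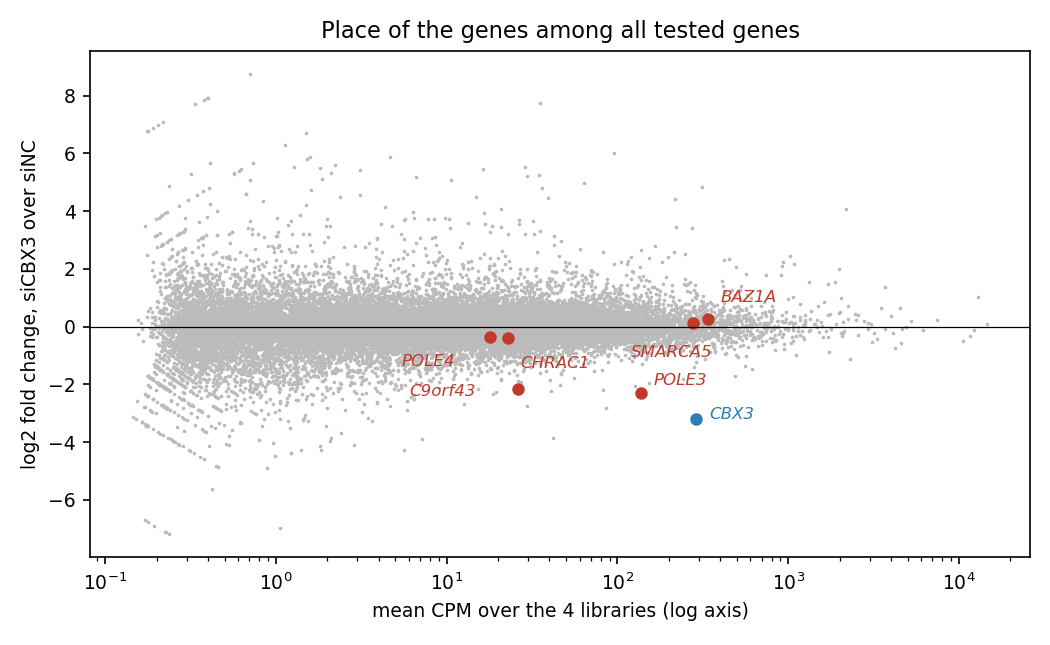
Log2 fold change (siCBX3 over siNC) against mean CPM over the 4 libraries (log axis) for all 20999 tested genes (grey), with the 6 genes in red and CBX3 in blue. Among genes over 100 CPM, a mean that POLE3 reaches through siNC alone, POLE3 at -2.30 is second to CBX3 at -3.19. Over all tested genes its rank is 221. POLE4, CHRAC1, SMARCA5 and BAZ1A lie near 0.

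The histone-fold partners of POLE3 were slightly lower in siCBX3. Among all tested genes 48.4% changed (24.4% rose and 24.0% fell, edgeR quasi-likelihood test, Benjamini-Hochberg adjusted p under 0.05), so a call by itself sets no gene apart. Of the 4 partners, POLE4 and CHRAC1 fell, BAZ1A rose and SMARCA5 was not called.

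POLE4 (chromosome 2, 74958492 to 74970128, plus strand), the other small subunit of polymerase ε, had 472 and 673 counts in siCBX3 libraries and 678 and 933 counts in siNC libraries. On the CPM scale these were 13.4 and 17.8 in siCBX3 and 18.0 and 22.1 in siNC, so that the groups nearly touched. POLE4 fell by 0.37 on the log2 scale (SE 0.12, adjusted p 0.0169, edgeR). The call ended without siCBX3 replicate 1 (-0.18, adjusted p 0.319) or siNC replicate 2 (-0.20, adjusted p 0.186), with DESeq2 (adjusted p 0.0583) and with limma on log2(RPKM + 1) (adjusted p 0.103). The direction was downward in each of these fits.

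CHRAC1 (chromosome 8, 140511298 to 140517137, plus strand), the histone-fold partner of POLE3 in CHRAC, had 685 and 757 counts in siCBX3 libraries and 887 and 1204 counts in siNC libraries. Its level was 19.7 ± 0.382 CPM in siCBX3 and 26.1 ± 3.56 CPM in siNC (SD, n = 2 each). CHRAC1 fell by 0.40 on the log2 scale (SE 0.10, adjusted p 0.00204, edgeR). Without siNC replicate 2, the higher of the siNC libraries, the log2 fold change was -0.25 and the call ended (adjusted p 0.0625).

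The large CHRAC subunits were at slightly higher average levels in siCBX3. SMARCA5 (chromosome 4, 143513463 to 143557486, plus strand), the ATPase, had 289 and 290 CPM in siCBX3 libraries and 283 and 249 CPM in siNC libraries. Its log2 fold change of 0.12 (SE 0.08) was not called (adjusted p 0.202, edgeR), and without siNC replicate 1 it was 0.21 and called (adjusted p 0.00981). BAZ1A (chromosome 14, 34752731 to 34875647, minus strand), which guides SMARCA5 in nucleosome spacing, had 369 and 368 CPM in siCBX3 libraries and 316 and 299 CPM in siNC libraries. BAZ1A rose by 0.26 on the log2 scale (SE 0.07, adjusted p 0.00401, edgeR), and the call ended without siCBX3 replicate 1 (adjusted p 0.0540). Both siCBX3 libraries were above both siNC libraries for each gene on this scale, and in deposited RPKM the groups overlapped for SMARCA5.

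Genes on the opposite strand share exon bases with both large subunits. SMARCA5-AS1 has 630 bases, 66.7% of its exon sequence, in common with SMARCA5, and it had a log2 fold change of 0.12 (adjusted p 0.351, edgeR). RP11-481K16.2 lies wholly under SMARCA5 exons and had 23 counts or fewer in every library. A clone-named gene opposite BAZ1A shares 951 bases with it, 44.9% of its own exons and 12.4% of those of BAZ1A. It rose by 0.32 (adjusted p 0.0287, edgeR), at 13.2 and 13.5 CPM in siCBX3 libraries and 9.95 and 11.5 CPM in siNC libraries. SMARCA5 itself had 10188 to 10977 counts per library. How reads over the shared bases were divided between these genes and the subunits they overlap is not known here and was not tested. SNORD75 and SNORA4 lie in the span of POLE4 and SNORA79 in that of BAZ1A, and none of these small nucleolar RNA genes shares an exon base with them. SNORA4 fell by 0.64 (adjusted p 0.0102, edgeR) and the others were not tested.

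Scaled by gene length, POLE3 had the highest level of the polymerase ε and small CHRAC subunits in every library, by a smaller margin after CBX3 depletion. The deposited RPKM of POLE3 was 17.0 and 17.7 in siCBX3 libraries and 90.6 and 89.4 in siNC libraries. POLE4 stood at 6.01 and 8.08 RPKM in siCBX3 and 8.45 and 10.8 RPKM in siNC. CHRAC1 stood at 5.68 and 5.92 RPKM in siCBX3 and 7.20 and 9.04 RPKM in siNC. Both partners were thus close to each other in both groups, and CHRAC1 was the lower one in every library.

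The ratio of POLE3 to POLE4 in RPKM was 2.82 and 2.19 in siCBX3 libraries and 10.7 and 8.31 in siNC libraries. The ratio of POLE3 to CHRAC1 was 2.98 and 2.99 in siCBX3 libraries and 12.6 and 9.89 in siNC libraries. POLE3 remained the more abundant of each pair in all 4 libraries. The ratio of POLE3 to POLE was 3.28 and 3.18 in siCBX3 libraries and 12.4 and 12.1 in siNC libraries. The ratio of POLE3 to POLE2 was 6.90 and 7.93 in siCBX3 libraries and 24.4 and 22.1 in siNC libraries. The ratio of POLE4 to CHRAC1 was 1.06 and 1.36 in siCBX3 libraries and 1.17 and 1.19 in siNC libraries, with overlapping groups. The ratio of SMARCA5 to BAZ1A was 0.719 and 0.723 in siCBX3 libraries and 0.824 and 0.766 in siNC libraries. The siCBX3 libraries thus held more BAZ1A per SMARCA5, by a small margin.

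**Figure D3:**
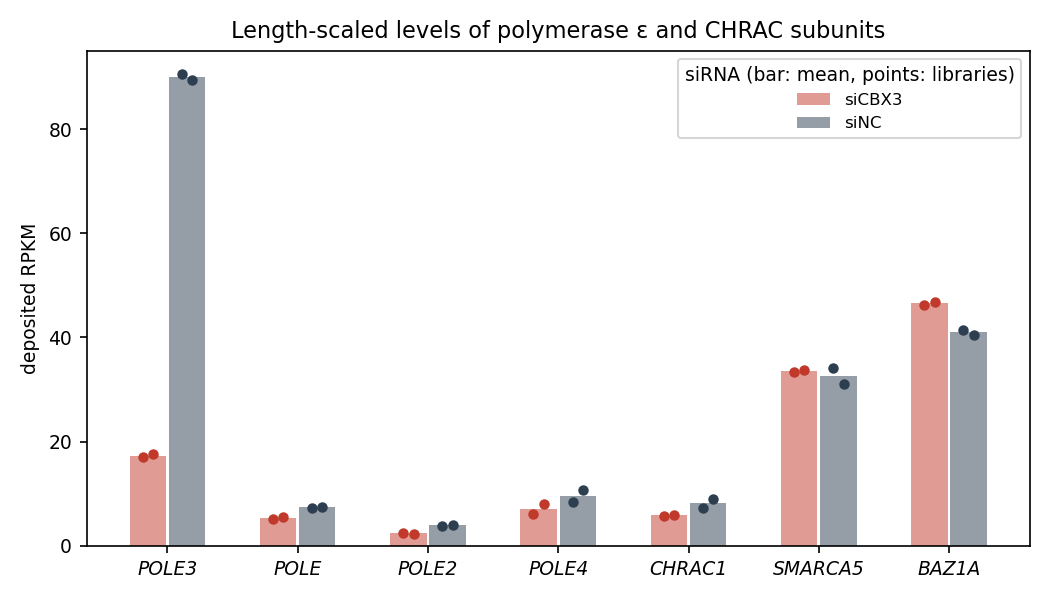
Deposited RPKM of the polymerase ε subunits POLE3, POLE, POLE2 and POLE4 and of the CHRAC subunits CHRAC1, SMARCA5 and BAZ1A, with bars for group means (siCBX3 left, siNC right, n = 2 each) and points for libraries. POLE3 is the highest of the 7 in siNC libraries, at 90.6 and 89.4, and lies below SMARCA5 and BAZ1A in siCBX3 libraries, at 17.0 and 17.7.

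The other subunits of polymerase ε fell as well. POLE, the catalytic subunit, had 91.6 ± 3.73 CPM in siCBX3 and 119 ± 1.94 CPM in siNC (SD, n = 2 each), and fell by 0.38 on the log2 scale (adjusted p 0.000172, edgeR). POLE2, the subunit that bridges to the helicase, fell by 0.65 (adjusted p 0.000188, edgeR), at 265 and 255 counts in siCBX3 libraries and 409 and 482 counts in siNC libraries. POLE, POLE2 and POLE4 together were thus lower by 0.37 to 0.65 on the log2 scale, against 2.30 for POLE3. The difference between POLE3 and these subunits was not tested, since POLE3 was chosen for its fall.

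Other replication genes mostly fell in the same libraries, and their part in the values of the POLE3 group was not tested. Counts over lists leave out POLE3 and C9orf43 and are given beside the median log2 fold change, which was -0.01 over all tested genes. Of all tested genes 24.4% rose and 24.0% fell. Of 11 replicative polymerase genes 7 fell and 1 rose, with a median of -0.37. POLA1, the catalytic subunit of primase-polymerase α, fell by 0.75 (adjusted p 1.64e-07, edgeR). POLD4, the smallest subunit of polymerase δ, rose by 1.63 (adjusted p 7.78e-12, edgeR), at 36.6 ± 3.60 CPM in siCBX3 and 11.8 ± 1.76 CPM in siNC (SD, n = 2 each). Of 25 tested helicase, clamp and clamp-loader genes 19 fell and 1, CHTF8, rose, with a median of -0.54. They included the checkpoint mediator CLSPN (-0.95), MCM10 (-0.93), the helicase subunit MCM6 (-0.78) and the clamp-loader subunit DSCC1 (-0.88).

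Genes of histone handling at the fork, a task of the POLE3 and POLE4 pair too, were partly lower. Of 17 tested genes of histone chaperones and their partners 9 fell and 1 rose, with a median of -0.23. The histone acetyltransferase HAT1 (-0.77), the H3 and H4 chaperone DNAJC9 (-0.76), MCM2 (-0.55) and the FACT subunit SUPT16H (-0.48) had the smallest adjusted p of the list, between 8.96e-09 and 7.64e-06 (edgeR). The CAF-1 subunit CHAF1A (-0.07) and the chaperone NASP (-0.09) were not called.

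Other histone-fold proteins fell more often than they rose. In that list of 22 tested genes, POLE4 and CHRAC1 among them, 13 fell and 4 rose, with a median of -0.27. The centromere genes CENPW (-0.87) and APITD1 (-0.68), the TFIID subunit TAF4 (-0.47) and NFYB (-0.53), a subunit of the CCAAT-binding factor NF-Y, fell. TAF11 (0.54), TAF10 (0.33), SUPT7L (0.37) and SUPT3H (0.42) rose. Genes of general transcription or SAGA complexes went both ways, as TAF8 (-0.44), TAF9B (-0.29), TAF9 (-0.25) and TAF3 (-0.23) fell like TAF4. Without siCBX3 replicate 1, 8 of the genes fell and 3 rose.

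Genes of the ISWI complexes mostly rose. Of 13 tested ISWI genes, with SMARCA5, BAZ1A and CHRAC1 among them, 8 rose and 3 fell, with a median of 0.26. SMARCA1, the other ISWI ATPase, had 10.3 ± 0.219 CPM in siCBX3 and 5.88 ± 0.352 CPM in siNC (SD, n = 2 each) and rose by 0.81 (adjusted p 2.04e-05, edgeR). SMARCA1 was far below SMARCA5 per length, at 2.32 and 2.28 RPKM in siCBX3 libraries and 1.30 and 1.47 RPKM in siNC libraries. The partners RSF1 (0.36), BAZ2B (0.36), HMGXB4 (0.40), BAZ2A (0.28), BPTF (0.26) and CECR2 (0.28) rose, each by a small amount. BAZ1B (-0.25), the partner of SMARCA5 in the WICH complex, and the histone-binding RBBP7 (-0.23) fell with CHRAC1, and RBBP4 (-0.10) was not called. The counts were 6 rising and 1 falling without siCBX3 replicate 2, and 4 rising and 3 falling with limma on log2(RPKM + 1), so the size of this shift rests on the library and the scale. Remodellers of other families were near the shares over all genes, with 8 of 28 tested genes rising and 7 falling and a median of -0.01. In this list 53.6% changed, against 48.4% of all tested genes. HELLS (-0.81), a remodeller needed for DNA methylation, fell, and CHD2 (0.54), SMARCE1 (0.59) and ARID1B (0.47) rose. Of 44 genes checked among those named here beside the 6, 9 share at least 10% of their exon bases with another gene, so that their counts are uncertain. These were POLD4, CHTF8, DNAJC9, APITD1, TAF10, SUPT7L, CHD2, FKBP15 and PDGFRA. Beyond these 9, CDC26 shares 17.7% of its exon bases with PRPF4. The genes opposite SMARCA5 and BAZ1A share 44.9% to 100% of theirs, so the same holds for them.

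**Figure D4:**
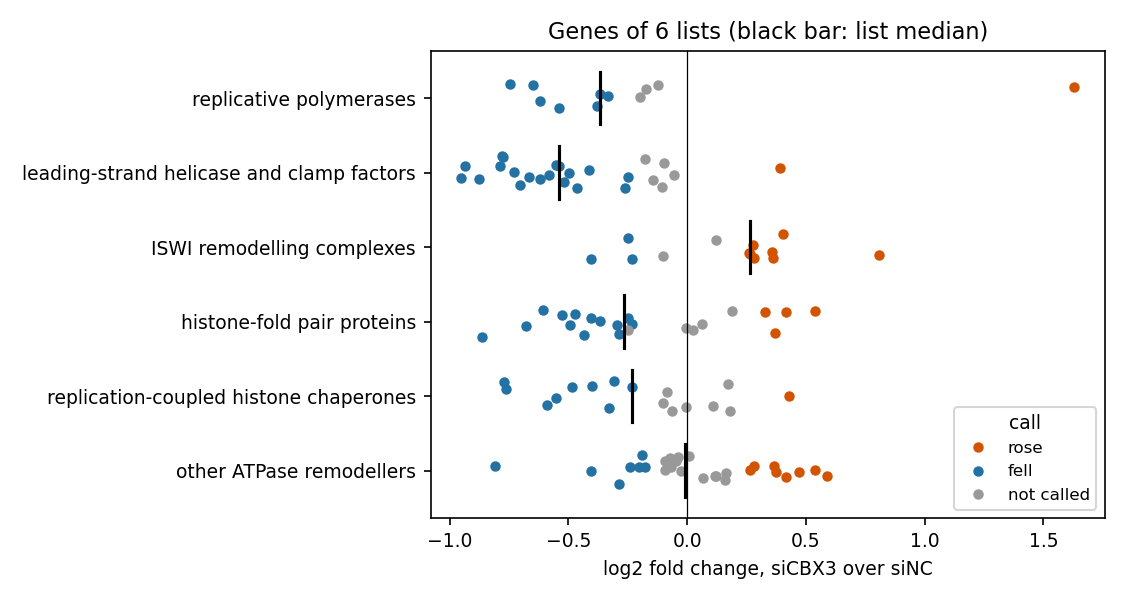
Log2 fold change (siCBX3 over siNC) of the tested genes in 6 lists, POLE3 and C9orf43 left out, with points coloured by call (edgeR adjusted p under 0.05) and a black bar at each list's median. Medians run between -0.54 for helicase and clamp factors and 0.26 for ISWI complexes, and POLD4 at 1.63 stands apart among the polymerases.

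Around POLE3 on chromosome 9 the adjacent tested genes on either side of the pair were not called, while a gene further along fell strongly. Of the 11 other genes within 200 kb on either side, 8 passed the count filter, of which 2 fell and 0 rose at an adjusted p under 0.05 (edgeR). Thus 25% changed, against 48.4% of all tested genes, of which 24.0% fell. ALAD, the heme-synthesis enzyme gene next to POLE3 on one side, had 34.2 ± 0.357 CPM in siCBX3 and 31.9 ± 0.869 CPM in siNC (SD, n = 2 each) and was not called (0.10, adjusted p 0.370, edgeR). RGS3, the G-protein regulator gene beyond C9orf43 on the other side, was not called either (0.27, adjusted p 0.0614, edgeR). The low genes HDHD3 (-0.14, SE 0.28) and WDR31 (-0.41, SE 0.32) were measured too imprecisely to place.

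SLC31A1, the gene of the main copper importer, fell by 1.88 on the log2 scale (SE 0.10, adjusted p 4.42e-14, edgeR). It had 395 and 418 counts in siCBX3 libraries and 1554 and 1710 counts in siNC libraries, a wide gap. SLC31A1 lies at 113221562 to 113264492 on the plus strand of chromosome 9, shares no exon base with another gene of this window and starts further from POLE3 than ALAD, HDHD3, WDR31, PRPF4 and CDC26 do, within a span that overlaps that of CDC26. FKBP15, whose start lies next to that of SLC31A1 on the opposite strand, was not called (0.17, adjusted p 0.0714, edgeR). PRPF4, a splicing factor gene, fell by 0.44 (adjusted p 7.07e-05, edgeR). Its head-to-head neighbour CDC26, an anaphase-promoting complex subunit gene with which it shares 208 exon bases, had -0.19 and was not called (adjusted p 0.0782, edgeR). Without siNC replicate 1 the window had 3 falling genes and 1 rising.

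**Figure D5:**
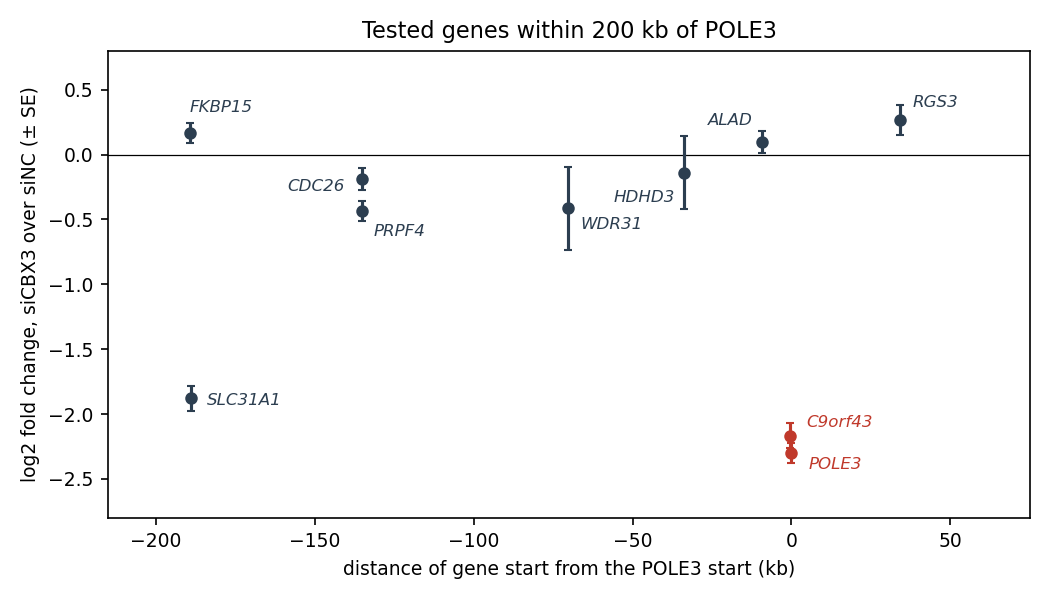
Log2 fold change (siCBX3 over siNC, bars ± SE) of the tested genes within 200 kb of POLE3, plotted by the distance of each gene's start from that of POLE3 in kb. POLE3 and C9orf43 (red) and SLC31A1 at -1.88 are low, while ALAD and RGS3 on either side of the pair lie at 0.10 and 0.27.

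Apart from C9orf43, the genes most like POLE3 across the 4 libraries came from other chromosomes. Likeness was the distance between log2 CPM profiles centred on each gene's mean, over 13951 other genes that averaged 100 counts or more. The 5 nearest that share no exon base with POLE3 were STXBP6 (distance 0.114), C2orf48 (0.134), TNS1 (0.159), PDGFRA (0.185) and NPTX1 (0.214). C9orf43, at 0.148, was the third nearest of all. PDGFRA, a receptor tyrosine kinase gene, was the most abundant of these, at 28.6 and 30.4 CPM in siCBX3 libraries and 147 and 122 CPM in siNC libraries. With 4 libraries in 2 groups, such distances mostly reflect the size of the difference between groups.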

How the data were processed

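Messenger RNA was sequenced in 4 libraries of 143B cells. The submitters' processing notes name STAR 2.5.3a, Trimmomatic 0.36 and Subread 1.5.1 with featureCounts, and the build GRCh38. For annotation release and strand setting the sources used here give nothing. The authors deposited raw read counts per gene and RPKM values, 1 column per library per the file headers. Depth was 36509298 to 40336907 counts per library, and intervals cover counting error only.

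Counts were fitted in R 4.3.3 with edgeR 4.0.16 (filterByExpr with minimum count 10 and total 15, TMM factors, quasi-likelihood test, group as the only term, 2 residual degrees of freedom), with Benjamini-Hochberg adjustment over all 20999 genes. SE was computed as the absolute log2 fold change divided by the square root of F. Profiles used log2 CPM with prior count 2. The fit was tested on simulated counts. Alternatives used DESeq2 1.42.0, limma 3.58.1 on log2(RPKM + 1), other scalings and filters, a replicate block and omission of each library. Exon overlaps came from the coordinates of the count table, biotypes and the shared exon from GENCODE 29, and promoters from RefSeq. The rest used Python 3.11.15 with scipy 1.17.1, matplotlib 3.10.9, pandas 2.3.3 and numpy 2.4.6.

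Genes named are the 6 genes, genes overlapping them, neighbours within 200 kb, other polymerase ε and ISWI subunits, the 4 genes of smallest adjusted p per list and the 5 nearest profiles. Others (SUPT7L, TAF10, TAF11, SUPT3H, TAF8, TAF9B, TAF9, TAF3, CHTF8, CHAF1A, NASP, RBBP4, RBBP7, C9orf66, DOCK8) were chosen after their values were seen. The genes and lists were chosen with earlier results of these data known. Replicates were not copies of each other (chi-square per degree of freedom 7.58 in siCBX3 and 13.1 in siNC).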

Additional observations from a re-analysis of the deposited data

How the results depend on the processing

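Across 11 alternatives no result changed direction. The number of changed genes, 10173, lay between 8276 (DESeq2) and 10630 (replicate block), and library totals gave 4243 rising and 5917 falling. POLE3 lay between -2.38 and -2.27 and C9orf43 between -2.25 and -2.001; the ends -2.38 and -2.25 came with library totals, and -2.001 with limma on log2(RPKM + 1), where the added 1 shrinks low genes. POLE4 lost its call with DESeq2 (-0.36) and with limma on log2(RPKM + 1) (-0.40), and ran from -0.58 to -0.18 when single libraries were left out. Under the same omissions CHRAC1 ran from -0.54 to -0.25, SMARCA5 from 0.033 to 0.21 and BAZ1A from 0.23 to 0.30. Changed ISWI genes numbered 7 of 13 with limma on log2(RPKM + 1) and 7 to 12 with a library left out; changed histone-fold genes then numbered 11 to 15 of 22, and changed neighbours of POLE3 2 to 4 of the 8 or 9 tested. The cause of these shifts was not tested.

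The replicate numbers are shared between groups but pair nothing in the labels. Deviations of same-numbered libraries correlated at 0.0481 across 15900 genes. The fit with a replicate block gave 10630 changed genes and log2 fold changes of -0.37 for POLE4 and 0.26 for BAZ1A. With 2 libraries per group, small differences such as those of SMARCA5 and RGS3 cannot be resolved.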
